A study of Mus musculus with 36 samples.

Results

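Hours 12 to 24 of neural induction with retinoic acid (RA) and SAG, an agonist of Hedgehog signalling, were examined by comparing mouse cultures at day 1 with cultures at day 0.5. The members are the libraries labelled with these time points, 3 for day 1 and 3 for day 0.5, which are 6 of 36 libraries from 12 time points. The cells were HM1, a mouse embryonic stem cell line, cleared of feeder cells and differentiated as a monolayer. In both groups they had been kept in 10 ng/ml bFGF, and on the last day before day 0 they also received 5 µM CHIR99021, a GSK3 inhibitor that activates Wnt signalling, 10 µM SB431542, an inhibitor of TGF-beta family type I receptors, and 2 µM DMH1, an inhibitor of BMP type I receptors. That treatment gives neuromesodermal progenitors, the bipotent cells of the caudal embryo that form spinal cord and trunk mesoderm. From day 0 on, the N2B27 medium held 100 nM RA and 500 nM SAG, for 24 hours in the day 1 group and for 12 hours in the day 0.5 group. Polyadenylated RNA was sequenced.

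Both groups received the same agents, so the comparison is one of time, and no untreated culture of the same age is among the samples used here. The effects of RA, of SAG and of time in culture cannot be told apart. The medium was changed daily, and the hour of the change relative to the day 1 harvest is not given in the sources used here. Hours since fresh medium and hours of treatment therefore also cannot be told apart. All libraries come from 1 cell line. The labels do not say whether the biological replicates came from separate cultures, and p-values therefore reflect only how far these libraries differ from one another, a spread that may be technical.

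RA enters the nucleus, binds RAR and RXR nuclear receptors on DNA and switches on target genes, among them the anterior Hox genes and genes for its own breakdown. It also opposes the Wnt and FGF driven gene programme of the caudal epiblast. SAG activates Smoothened, and the Gli transcription factors then induce feedback genes such as Ptch1 and Hhip and, in the neural tube, the transcription factors of ventral progenitors. In spinal cord these factors repress one another in pairs, which sorts progenitors into the domains that give motor neurons and interneurons.

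The 6 libraries held between 28709140 and 34358563 expected counts, and mitochondrial genes took 1.04 to 1.16% of them at day 1 and 1.14 to 1.35% at day 0.5. Levels are given in TPM, read abundance scaled for transcript length and for the library's total, for each replicate in the order 1, 2 and 3. Changes are log2 fold changes of counts, day 1 minus day 0.5, with an approximate standard error, and a gene is called when its adjusted p in edgeR's quasi-likelihood test is under 0.05. Of 17990 genes tested, 8554 were called, which is 47.5% of them. At day 1, 4185 genes were higher (23.3%) and 4369 lower (24.3%). A change of at least 2-fold was reached by 1626 called genes (9.04%), of which 681 were higher (3.79% of all tested) and 945 lower (5.25%). The 3 day 1 libraries lay entirely above or entirely below the 3 day 0.5 libraries, in CPM, counts scaled to library size, for 55.1% of genes. The median log2 fold change over all genes was -0.0054 and the median of its absolute value was 0.26. With close to every other gene called, a share of called members near these percentages says little about a gene group. Over genes of at least 10 CPM, the root mean square difference of the group means was 0.40 on the log2 scale, and that between single libraries of one time point ranged from 0.10 to 0.17. The largest of those values was between day 1 replicates 1 and 3.

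**Figure D1:**
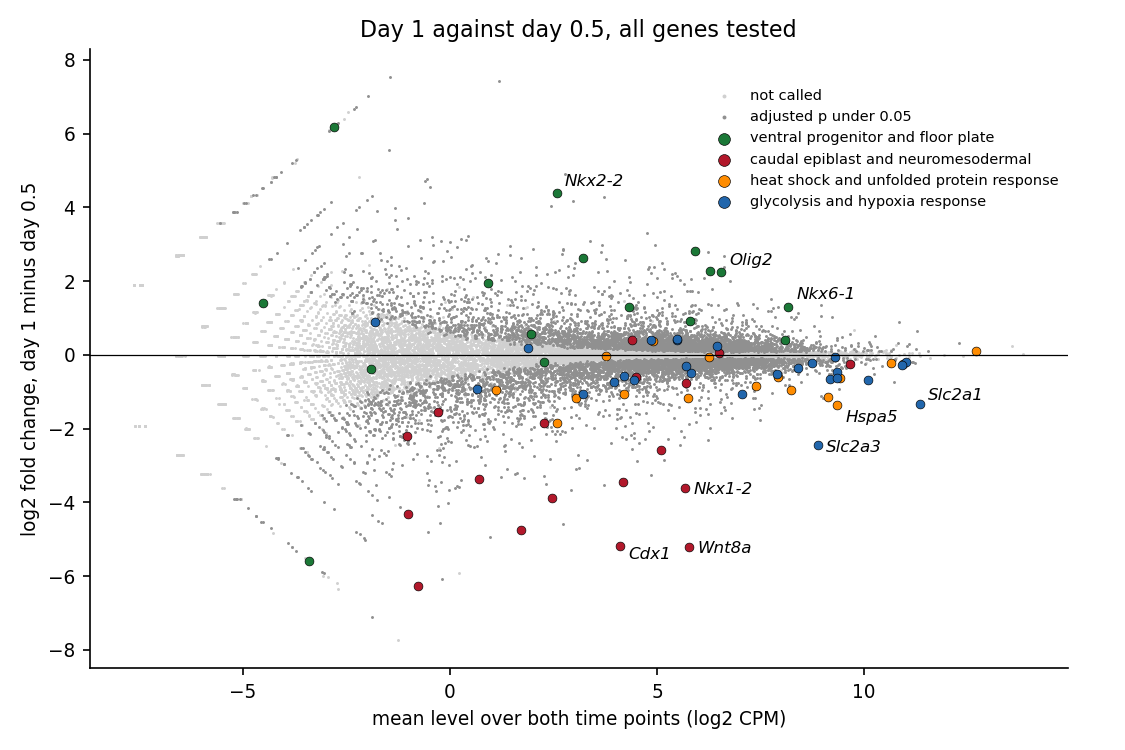
Each point is 1 of the 17990 genes tested, with its mean level over both time points on the x axis (log2 CPM) and its log2 fold change, day 1 minus day 0.5, on the y axis. Coloured points are members of 4 gene groups: ventral progenitor genes lie mostly above 0 and caudal epiblast genes mostly below, Nkx2-2 at 4.40 and Wnt8a at -5.20. Genes with no count in either group have no mean on the log scale and are not drawn.

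Genes of ventral neural progenitors and floor plate, most of them for transcription factors, were mostly higher at day 1. Of 16 such genes tested, 12 were higher and 1 was lower, 9 of them higher by at least 2-fold, and the median log2 fold change was 1.35. Nkx2-2, which marks the progenitors of V3 interneurons next to the floor plate (ENSMUSG00000027434, chr2:147177546-147194243, minus strand, GRCm38), had 11.3, 10.0 and 9.59 TPM at day 1, against 0.58, 0.46 and 0.46 TPM at day 0.5. The gene was barely detected in each of the 3 earlier libraries and clearly present in each of the later ones (log2 fold change 4.40 ± 0.15, adjusted p = 1.05e-21). Olig2, the factor of motor neuron progenitors (ENSMUSG00000039830, chr16:91225457-91228677, plus strand), had 104, 106 and 104 TPM at day 1, against 23.6, 20.6 and 20.9 TPM at day 0.5. The libraries of each time point were close together, and the groups did not overlap (log2 fold change 2.26 ± 0.11, adjusted p = 8.53e-18). Nkx6-1, a factor of the broader ventral domain that includes both of those progenitor types (ENSMUSG00000035187, chr5:101658139-101664996, minus strand), had 222, 215 and 206 TPM at day 1, against 92.0, 83.0 and 84.8 TPM at day 0.5. Each day 1 library exceeded each day 0.5 library by more than 100 TPM (log2 fold change 1.30 ± 0.06, adjusted p = 1.85e-19).

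Nkx2-9, a paralogue of Nkx2-2 with an overlapping domain, was at 119.6 to 166 TPM at day 1 and 16.6 to 23.9 TPM at day 0.5 (log2 fold change 2.82 ± 0.11, adjusted p = 7.39e-21). At both time points it was far above Nkx2-2 in TPM. Olig1, the neighbour and paralogue of Olig2, ranged over 10.7 to 13.3 TPM at day 1 and 1.83 to 2.14 TPM at day 0.5 (log2 fold change 2.62 ± 0.17, adjusted p = 8.93e-15). Spon1, which encodes F-spondin, a secreted protein of the floor plate, ranged over 32.9 to 35.4 TPM at day 1 and 6.64 to 7.18 TPM at day 0.5 (log2 fold change 2.27 ± 0.06, adjusted p = 4.86e-24). Foxa2, the forkhead factor that specifies floor plate, had 70.9, 58.2 and 51.9 TPM at day 1, against 31.2, 29.7 and 32.0 TPM at day 0.5. Replicate 1 was the highest of the day 1 libraries, and all 3 lay above those of day 0.5 (log2 fold change 0.92 ± 0.10, adjusted p = 1.34e-09). Shh itself, the Hedgehog ligand made by floor plate, was at a low level of 2.02, 1.52 and 1.63 TPM at day 1 and 0.44, 0.66 and 0.25 TPM at day 0.5 (log2 fold change 1.94 ± 0.29, adjusted p = 9.88e-07). The lowest day 1 library was above the highest day 0.5 library. Ferd3l, a bHLH factor of the floor plate, summed to 26 counts over the 3 day 1 libraries and to 0 over those of day 0.5, which makes it at least 2.83-fold higher in mean CPM with a limit of 3 counts per library at day 0.5. Lmx1b and Sim1 did not pass the test, at log2 fold changes of -0.20 and -0.39. The list's lower member was Gsx1, a factor of more dorsal progenitors, with 0 counts at day 1 and 17 at day 0.5, at least 1.93-fold lower by the same limit.

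Genes of dorsal and intermediate progenitors moved the other way. Of 16 tested, 9 were lower and 1 was higher at day 1, with a median log2 fold change of -0.72. A further 4 of the 20 listed were not tested because of low counts. Olig3, a bHLH factor of the dorsal-most progenitors and of p3 cells (ENSMUSG00000045591, chr10:19356533-19358604, plus strand), had 0.28, 0.35 and 0.63 TPM at day 1, against 9.99, 12.0 and 8.88 TPM at day 0.5. It was under 1 TPM in all 3 libraries of day 1 (log2 fold change -4.58 ± 0.23, adjusted p = 2.03e-17). Msx1, a dorsal homeobox gene and BMP target, had 0.94, 0.78 and 0.87 TPM at day 1, against 5.03, 4.79 and 4.82 TPM at day 0.5, with no overlap of the groups (log2 fold change -2.51 ± 0.23, adjusted p = 6.24e-11). Pax7, a paired-box factor of dorsal progenitors, was at 0.33 to 0.45 TPM at day 1 and 0.81 to 0.98 TPM at day 0.5 (log2 fold change -1.19 ± 0.26, adjusted p = 0.000335). Pax3, its paralogue, was at 0.49 to 0.61 TPM at day 1 and 0.60 to 0.95 TPM at day 0.5, and the difference did not pass the test (log2 fold change -0.54 ± 0.37, adjusted p = 0.239), though it did with limma on log2(TPM + 1) (adjusted p = 0.0267). Gbx2, a factor of the anterior hindbrain and spinal cord, ranged over 22.8 to 29.2 TPM at day 1 and 60.2 to 73.9 TPM at day 0.5 (log2 fold change -1.40 ± 0.09, adjusted p = 6.02e-15).

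Pan-neural progenitor genes were divided, which bears on the label of the samples as neural progenitors. Of 19 tested, 9 were higher and 7 lower at day 1, and the median log2 fold change was 0.01. Sox1, a SoxB1 factor that defines neural progenitors, had 79.4, 77.5 and 76.5 TPM at day 1, against 78.1, 72.9 and 78.8 TPM at day 0.5. The groups overlapped, and no difference was detected (log2 fold change 0.01 ± 0.05, adjusted p = 0.871). Pax6, a paired-box factor of neural progenitors that opposes Nkx2-2 at the ventral end of its domain, had 59.9, 52.3 and 56.4 TPM at day 1, against 100.4, 108 and 112 TPM at day 0.5. All day 1 libraries were lower (log2 fold change -0.92 ± 0.06, adjusted p = 2.21e-14). Irx3, an Iroquois factor that Olig2 opposes, was at 72.6 to 82.7 TPM at day 1 and 76.3 to 93.3 TPM at day 0.5, without a call (log2 fold change -0.14 ± 0.07, adjusted p = 0.0878). Without day 0.5 replicate 3 it passed (log2 fold change -0.21, adjusted p = 0.0182), as it did without the filter on low counts (adjusted p = 0.0305). Zic2, a zinc-finger factor of epiblast and dorsal neural tube, fell, with a log2 fold change of -1.63. Vim, the intermediate filament protein of neural progenitors and many other cells, had 424, 411 and 403 TPM at day 1, against 161, 155 and 194 TPM at day 0.5. It was higher in all day 1 libraries (log2 fold change 1.30 ± 0.06, adjusted p = 2.11e-19). Msi1, an RNA-binding protein of neural progenitors, showed log2 fold change 0.97, and Lfng, a glycosyltransferase that modifies Notch, log2 fold change 1.72. Neural progenitor genes were therefore expressed in all 6 libraries, and their set changed in composition.

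**Figure D2:**
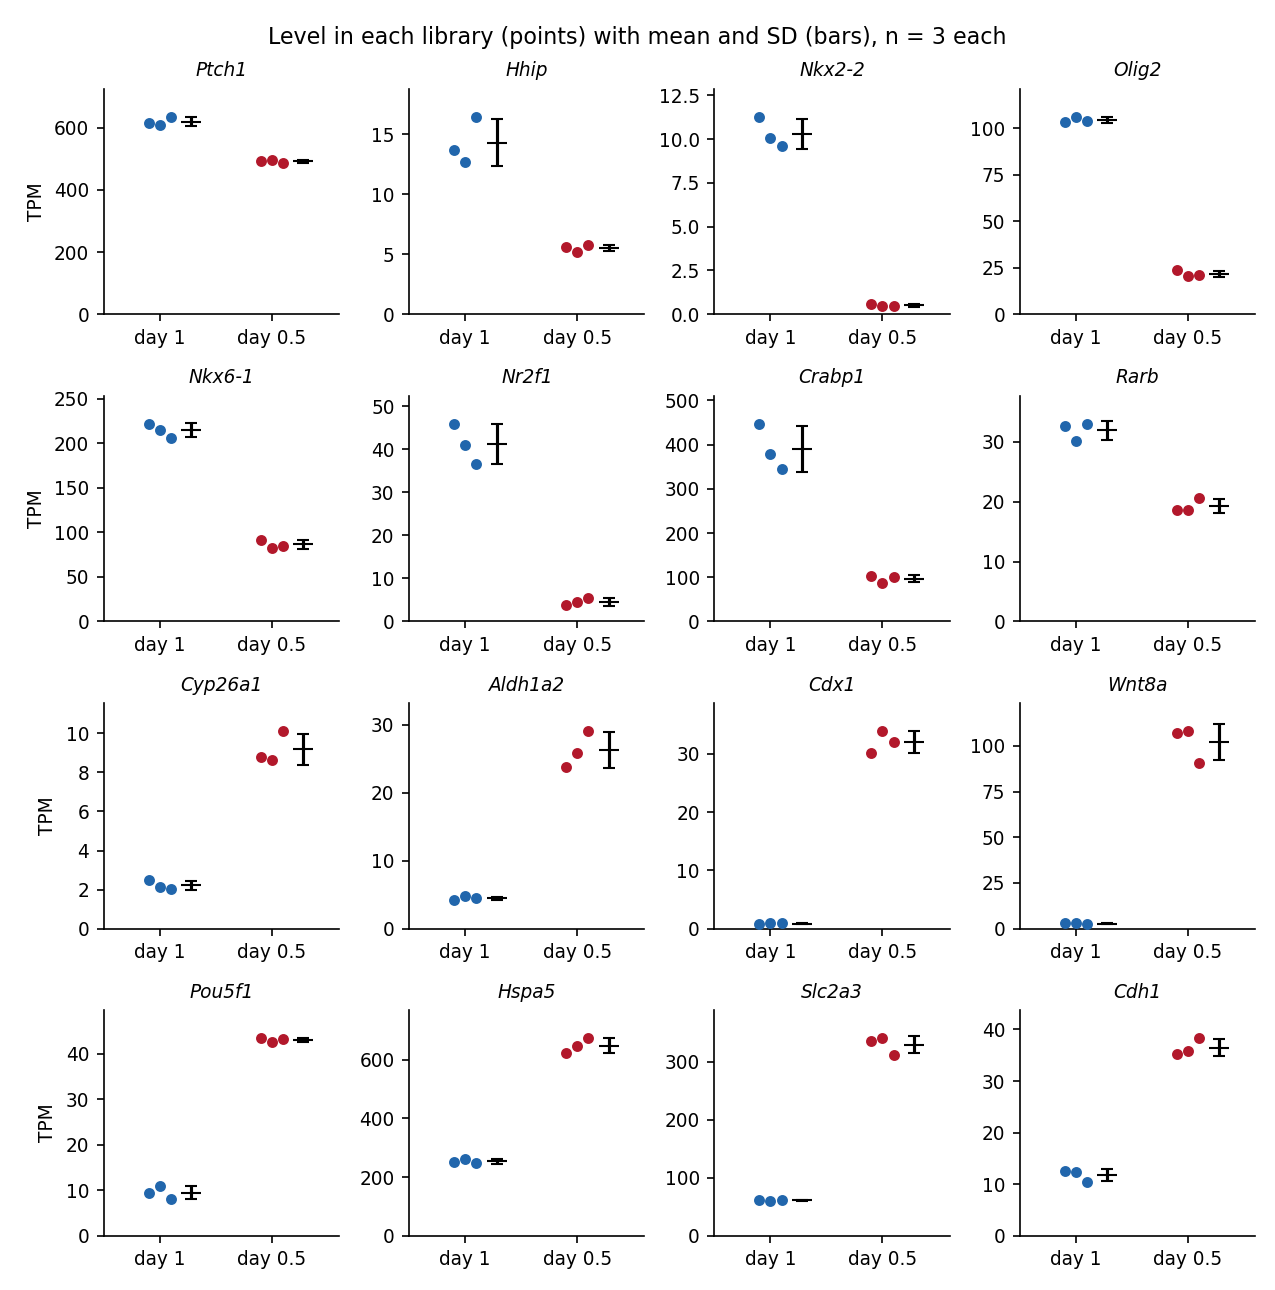
The 16 panels show TPM on linear axes from 0 in each day 1 library (blue, left) and each day 0.5 library (red, right), with the mean and SD over 3 libraries as black bars. In every panel the 2 groups are separate: ventral genes such as Nkx2-2 and Olig2 are higher at day 1, and caudal genes such as Cdx1 and Wnt8a are near 0 there.

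Hedgehog target genes, most of which feed back on the pathway, were higher for the larger part. Of 9 tested, 7 were higher and 2 lower, with a median log2 fold change of 0.55. Ptch1, the Hedgehog receptor and a direct Gli target (ENSMUSG00000021466, chr13:63508328-63573598, minus strand), had 614, 609.9 and 635 TPM at day 1, against 493, 495 and 487 TPM at day 0.5. The day 1 libraries were higher without overlap, at a small fold (log2 fold change 0.33 ± 0.04, adjusted p = 8.27e-08). Gli1, a Gli activator that is itself induced by the pathway, had 126, 106 and 103 TPM at day 1, against 85.5, 87.2 and 83.3 TPM at day 0.5. Replicate 1 was the highest at day 1, and the groups did not overlap (log2 fold change 0.37 ± 0.08, adjusted p = 0.000265). Hhip, a membrane protein that binds and sequesters Hedgehog ligands (ENSMUSG00000064325, chr8:79965851-80058006, minus strand), had 13.7, 12.7 and 16.4 TPM at day 1, against 5.62, 5.19 and 5.73 TPM at day 0.5. It showed a larger change than Ptch1 or Gli1 (log2 fold change 1.49 ± 0.08, adjusted p = 3.3e-17). The cell cycle targets went apart. Ccnd2, cyclin D2, had 752, 757 and 769 TPM at day 1, against 433, 422 and 403 TPM at day 0.5, and was higher in all libraries of day 1 (log2 fold change 0.88 ± 0.07, adjusted p = 3.46e-13). Ccnd1, cyclin D1, had 95.1, 93.9 and 88.8 TPM at day 1, against 159, 161 and 161 TPM at day 0.5, and was lower in all of them (log2 fold change -0.81 ± 0.07, adjusted p = 3.02e-12). Foxf1, a forkhead gene that Hedgehog induces in mesoderm, was higher at a low level of 4.08 to 4.31 TPM, against 1.65 to 1.74 TPM at day 0.5 (log2 fold change 1.30 ± 0.15, adjusted p = 4.38e-09).

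The genes that receive and transmit the signal were called about as often as genes at large. Of 12 tested, 2 were higher and 4 lower, where 47.5% of all genes were called in either direction. None changed by 2-fold, which 9.04% of all genes did, and a list of this size cannot be set apart from that share. Gli2, the main activator among the Gli factors that are present without signal, had 16.9, 16.9 and 14.5 TPM at day 1, against 27.6, 25.0 and 26.2 TPM at day 0.5. It was lower at day 1 in all libraries (log2 fold change -0.69 ± 0.08, adjusted p = 2.93e-08). Gli3, mainly a repressor, was at 14.2 to 16.3 TPM at day 1 and 17.9 to 19.1 TPM at day 0.5 (log2 fold change -0.28 ± 0.06, adjusted p = 0.000248). In TPM the call on Gli3 was lost (adjusted p = 0.119 with limma on log2(TPM + 1)). Without day 1 replicate 3 the count of higher members was 4 in place of 2. Smo, the receptor protein on which SAG acts, did not pass the test (log2 fold change 0.09), though it did without day 1 replicate 3 (log2 fold change 0.12, adjusted p = 0.0358).

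Retinoid genes changed in both directions. Of 13 genes for synthesis, transport and degradation tested, 3 were higher and 6 lower. Aldh1a2, the enzyme that makes RA in the embryonic trunk (ENSMUSG00000013584, chr9:71215789-71296243, plus strand), had 4.25, 4.75 and 4.45 TPM at day 1, against 23.8, 25.9 and 29.1 TPM at day 0.5. The day 1 libraries held less than the lowest day 0.5 library by a wide margin (log2 fold change -2.56 ± 0.11, adjusted p = 6.9e-19). Cyp26a1, the enzyme that degrades RA and a direct RAR target (ENSMUSG00000024987, chr19:37697798-37701536, plus strand), had 2.48, 2.14 and 2.04 TPM at day 1, against 8.77, 8.65 and 10.1 TPM at day 0.5. The groups did not overlap (log2 fold change -2.06 ± 0.14, adjusted p = 5.19e-14). Dhrs3, which turns retinaldehyde back to retinol and is also induced by RA, had 6.88, 7.13 and 6.75 TPM at day 1, against 13.7, 16.4 and 16.2 TPM at day 0.5, again with the groups apart (log2 fold change -1.14 ± 0.11, adjusted p = 1.16e-10). Stra6, the cell surface receptor for retinol-binding protein, ranged over 12.4 to 16.9 TPM at day 1 and 49.7 to 54.6 TPM at day 0.5 (log2 fold change -1.88 ± 0.09, adjusted p = 6.12e-18). The genes for the intracellular RA-binding proteins were higher. Crabp1 (ENSMUSG00000032291, chr9:54764748-54773110, plus strand) had 447, 379 and 345 TPM at day 1, against 102, 87.3 and 101 TPM at day 0.5. Replicate 3 was the lowest at day 1 and still above the day 0.5 libraries (log2 fold change 2.00 ± 0.07, adjusted p = 5.12e-22). Crabp2, which carries RA to the nuclear receptors, had 1525, 1561 and 1539.8 TPM at day 1, against 729, 720.2 and 826 TPM at day 0.5, higher in all day 1 libraries (log2 fold change 1.01 ± 0.05, adjusted p = 5.17e-17). The remaining genes tested, Cyp26b1, Aldh1a1, Aldh1a3 and Lrat, did not pass the test, and Cyp26c1 was too low to test. Cyp26b1 passed without day 0.5 replicate 3 (log2 fold change 0.64, adjusted p = 0.00734).

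Of 16 receptor genes and early targets of RA, 11 were higher and 5 lower, with a median log2 fold change of 0.38. Nr2f1, an orphan nuclear receptor of the COUP-TF family that RA induces in many embryonic cells (ENSMUSG00000069171, chr13:78188973-78199757, minus strand), had 45.9, 41.0 and 36.7 TPM at day 1, against 3.76, 4.42 and 5.40 TPM at day 0.5. It was low in the earlier libraries and much higher in the later ones (log2 fold change 3.30 ± 0.06, adjusted p = 1.9e-29). Nr2f2, the other COUP-TF gene of mammals, changed alike, at 14.9 to 15.7 TPM at day 1 and 2.27 to 2.47 TPM at day 0.5 (log2 fold change 2.61 ± 0.11, adjusted p = 1.4e-19). Rarb, an RA receptor gene that RA itself induces through the element shown further on (ENSMUSG00000017491, chr14:16430839-16819156, minus strand), had 32.7, 30.1 and 33.0 TPM at day 1, against 18.6, 18.6 and 20.7 TPM at day 0.5. All day 1 libraries were higher (log2 fold change 0.72 ± 0.06, adjusted p = 3.23e-12). Rxrg, a retinoid X receptor, was lower (log2 fold change -2.02 ± 0.18, adjusted p = 1.78e-11). Hoxb1, one of the fastest Hox genes to respond to RA, had 33.2, 33.6 and 29.9 TPM at day 1, against 91.3, 93.5 and 79.3 TPM at day 0.5, lower in all day 1 libraries (log2 fold change -1.46 ± 0.08, adjusted p = 6.98e-17). Direct targets of the same receptors therefore moved in opposite directions between 12 and 24 hours.

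Promoters, 250 bases before the transcription start and 50 from it on, were taken from RefSeq (GRCm38.p6), because Cyp26a1 and Rarb, which changed in opposite directions, are the textbook genes with an RA response element next to the start. The search was for the element known as DR5, a direct repeat of 2 hexamers with 5 bases of any kind between them, on either strand. Each hexamer was AGGTCA or a variant of it with G as the first base, T as the third base, or both. Of 27025 genes with a promoter in the table, 31 held it (0.115%). It was found in Cyp26a1, 1 of 10 retinoid metabolism genes with a promoter, and in Rarb, 1 of 12 receptor and target genes. Capitals mark the match, in Cyp26a1 (chr19:37697558-37697857, plus strand) and in Rarb (chr14:16575427-16575726, minus strand), each printed 5′ to 3′ in the direction of transcription.
Cyp26a1: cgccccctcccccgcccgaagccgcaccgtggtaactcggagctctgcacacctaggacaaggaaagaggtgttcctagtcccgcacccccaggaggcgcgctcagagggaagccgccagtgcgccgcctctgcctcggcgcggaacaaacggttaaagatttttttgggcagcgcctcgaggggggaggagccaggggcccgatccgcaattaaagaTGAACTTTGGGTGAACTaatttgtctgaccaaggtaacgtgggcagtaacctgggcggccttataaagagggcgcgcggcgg
Rarb: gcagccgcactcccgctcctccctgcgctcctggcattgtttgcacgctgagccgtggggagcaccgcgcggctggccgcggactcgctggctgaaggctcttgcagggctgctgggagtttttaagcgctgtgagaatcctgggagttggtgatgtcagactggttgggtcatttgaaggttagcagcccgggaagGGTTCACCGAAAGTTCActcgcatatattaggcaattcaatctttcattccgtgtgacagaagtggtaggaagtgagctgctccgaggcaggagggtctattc
In Cyp26a1 the match lies on the opposite strand. These are matches of letters in a window and were not tested for receptor binding.

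Genes of the caudal epiblast and of neuromesodermal progenitors had the lowest median among the 36 lists examined. Of 18 tested, 16 were lower and 1 was higher, 13 were lower by at least 2-fold, and the median log2 fold change was -2.97. Wnt8a, a Wnt ligand of the posterior embryo, had 3.13, 2.95 and 2.34 TPM at day 1, against 107, 108 and 90.5 TPM at day 0.5. The level at day 1 was a small fraction of that 12 hours earlier in every library (log2 fold change -5.20 ± 0.10, adjusted p = 4.06e-28). Cdx1, a caudal homeobox factor that activates posterior Hox genes, had 0.74, 0.96 and 0.93 TPM at day 1, against 30.2, 33.9 and 31.9 TPM at day 0.5. It was at or under 1 TPM in all 3 libraries of day 1 (log2 fold change -5.19 ± 0.17, adjusted p = 2.09e-21). Cdx2, its paralogue, had 6.58, 7.88 and 6.93 TPM at day 1, against 44.6, 48.5 and 34.5 TPM at day 0.5, and replicate 3 was the lowest at day 0.5 (log2 fold change -2.58 ± 0.12, adjusted p = 2.3e-18). Nkx1-2, which marks the caudal lateral epiblast and the pre-neural tube (ENSMUSG00000048528, chr7:132594878-132599637, minus strand), had 3.41, 4.32 and 3.91 TPM at day 1, against 51.1, 51.8 and 38.9 TPM at day 0.5. The groups were far apart (log2 fold change -3.61 ± 0.10, adjusted p = 2.15e-24). T, the Brachyury gene of the primitive streak and of neuromesodermal progenitors, had 2.34, 1.65 and 2.11 TPM at day 1, against 8.46, 7.75 and 5.59 TPM at day 0.5, with day 0.5 replicate 3 nearest to day 1 (log2 fold change -1.84 ± 0.24, adjusted p = 9.1e-08). Fgf8, the FGF ligand that keeps the caudal progenitor state, had 0.61, 0.26 and 0.81 TPM at day 1, against 5.29, 7.16 and 4.29 TPM at day 0.5 (log2 fold change -3.36 ± 0.37, adjusted p = 3.29e-09). Wnt3a, the Wnt ligand of the same cells, was at 0.02 to 0.04 TPM at day 1 and 0.45 to 0.66 TPM at day 0.5 (log2 fold change -4.32 ± 0.43, adjusted p = 4.89e-10).

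Cdx4 and Hes3 fell with them, with log2 fold changes of -4.76 and -3.89. Hes3 is a bHLH repressor of early neural and caudal progenitors. Evx1, a homeobox gene of the primitive streak, had 1 count over the 3 day 1 libraries and 103 over those of day 0.5, a ratio of 105 (95% counting interval 18.5 to 4190) in favour of day 0.5. The member that was higher was Wnt5b (log2 fold change 0.41), and Greb1 did not pass the test (log2 fold change 0.05). Day 0.5 was itself well below day 0 for most of these genes: mean TPM at days 0, 0.5 and 1 were 239.9, 42.5 and 7.13 for Cdx2 and 291, 47.3 and 3.88 for Nkx1-2. For Wnt8a they were 238, 102 and 2.81.

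Response genes of Wnt and FGF signalling were lower as well. Of 14 Wnt response genes tested, 8 were lower and none was higher by edgeR, DESeq2 or limma, with a median log2 fold change of -0.38. At an unadjusted p under 0.05, 0 were higher. Sp5, a zinc-finger gene induced by Wnt, had 2.21, 2.87 and 2.09 TPM at day 1, against 27.3, 26.8 and 24.1 TPM at day 0.5, all low at day 1 (log2 fold change -3.46 ± 0.13, adjusted p = 1.22e-20). Axin2, the negative feedback gene most used as a Wnt readout, had 30.7, 28.8 and 26.9 TPM at day 1, against 46.0, 43.8 and 43.8 TPM at day 0.5. Its groups were apart at a smaller fold (log2 fold change -0.61 ± 0.04, adjusted p = 7.51e-14). Sfrp5, a secreted Wnt antagonist, was at 1.74 to 2.06 TPM at day 1 and 18.2 to 27.4 TPM at day 0.5 (log2 fold change -3.53 ± 0.20, adjusted p = 7.21e-16), and Frzb, another one, fell by 3.09 on the log2 scale. Dkk1, a secreted inhibitor of the Wnt co-receptors, had 2 counts at day 1 and 157 at day 0.5 over 3 libraries each, a ratio of 80.1 (95% counting interval 21.8 to 668) in favour of day 0.5. Nkd1, Nkd2, Rnf43, Znrf3, Apcdd1 and Bambi did not pass the test.

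Among 17 FGF-ERK response genes, 10 were lower and 2 higher, with a median of -0.44. Etv4, an ETS factor that reports FGF signalling, had 14.1, 15.4 and 13.5 TPM at day 1, against 70.5, 79.1 and 60.4 TPM at day 0.5, with every day 1 library lower (log2 fold change -2.23 ± 0.10, adjusted p = 2e-19). Etv5, its paralogue, was at 12.0 to 13.2 TPM at day 1 and 21.6 to 24.6 TPM at day 0.5 (log2 fold change -0.90 ± 0.11, adjusted p = 5.95e-08). Spry4 and Spry2, feedback inhibitors of receptor tyrosine kinase signalling, had log2 fold changes of -1.16 and -0.70. The 2 genes that were higher were the phosphatase genes Dusp6 (0.36) and Dusp5 (0.25), and 1 of these calls was lost without day 0.5 replicate 1, day 0.5 replicate 2 or day 1 replicate 1. Of 17 BMP pathway genes tested, 4 were higher, among them the target Id3 at 96.2 to 108 TPM at day 1 and 41.7 to 52.2 TPM at day 0.5 (log2 fold change 1.18 ± 0.07, adjusted p = 5.78e-15), and 6 were lower, among them Msx1 and the target Id2 (log2 fold change -0.90). Of 16 immediate early genes, 6 were higher, led by Jun (log2 fold change 0.82), and 2 were lower. Without day 0.5 replicate 3, 3 immediate early genes were higher.

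Pluripotency and epiblast genes fell or did not pass the test. Of 24 tested, 15 were lower and none was higher by edgeR, DESeq2 or limma, and the median was -0.53. At an unadjusted p under 0.05, 0 were higher. Pou5f1, the Oct4 gene (ENSMUSG00000024406, chr17:35506018-35510772, plus strand), had 9.34, 10.9 and 8.09 TPM at day 1, against 43.4, 42.6 and 43.2 TPM at day 0.5. The level in day 1 libraries was a small part of that at day 0.5 (log2 fold change -2.18 ± 0.14, adjusted p = 1.51e-14). Trh, the gene for thyrotropin-releasing hormone, had 29.6, 33.1 and 32.1 TPM at day 1, against 149, 167 and 147 TPM at day 0.5, lower in all 3 later libraries (log2 fold change -2.30 ± 0.10, adjusted p = 4.42e-19). Dnmt3b, a DNA methyltransferase of epiblast cells, was at 25.5 to 28.3 TPM at day 1 and 55.6 to 57.0 TPM at day 0.5 (log2 fold change -1.15 ± 0.05, adjusted p = 9.53e-19). Lin28a, an RNA-binding protein that blocks let-7 maturation, was still at 335 to 358 TPM at day 1, against 409 to 414 TPM at day 0.5, and its change was small (log2 fold change -0.25 ± 0.05, adjusted p = 3.45e-05).

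Hox genes of the anterior paralogue groups changed in both directions. Of 12 genes of groups 1 to 4, 7 were higher and 4 lower. Of group 1, Hoxb1 and Hoxd1 fell, with log2 fold changes of -1.46 and -1.20. The group 4 genes, which in the embryo start in the caudal hindbrain, all rose. Hoxb4 had 41.3, 35.7 and 41.5 TPM at day 1, against 21.6, 22.2 and 18.8 TPM at day 0.5, without overlap (log2 fold change 0.91 ± 0.08, adjusted p = 2.39e-11). Hoxd4 rose (log2 fold change 1.28), as did Hoxc4 (1.06) and Hoxa4 (0.59). Hoxd3 was at 41.6 to 54.6 TPM at day 1 and 8.81 to 11.7 TPM at day 0.5 (log2 fold change 2.21 ± 0.11, adjusted p = 1.37e-17). Hoxd3 and Hoxd4 share exons on the same strand and so may share reads, as may Hoxa2 (log2 fold change 1.10) with a neighbouring transcript. Of 11 genes of groups 5 to 8, 6 were higher and 3 lower. Hoxb5 had 20.7, 19.7 and 19.9 TPM at day 1, against 14.2, 13.1 and 11.9 TPM at day 0.5, higher at day 1 (log2 fold change 0.62 ± 0.11, adjusted p = 3.07e-05), and Hoxc6 was at 7.10 to 8.07 TPM at day 1 and 4.44 to 7.10 TPM at day 0.5, without a call (log2 fold change 0.39 ± 0.22, adjusted p = 0.147). It passed in 3 other settings, with adjusted p = 0.000236 without the filter on low counts, 0.0425 with limma on log2(TPM + 0.1) and 0.0429 in a fit of the 6 libraries alone. Hoxc8 fell (log2 fold change -1.66). Of the 16 genes of groups 9 to 13, 7 had enough counts to test, and edgeR called none of them, with 0 higher and 0 lower at an unadjusted p under 0.05. DESeq2 called none, limma on log2(TPM + 1) called 2 lower, and edgeR called 1 lower without day 0.5 replicate 3 or without the filter on low counts.

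Notch signalling genes and the first genes of neurogenesis were mostly higher. Of 23 genes of the neurogenic transition, 14 were higher and 2 lower, and the median log2 fold change was 0.47. The lower ones numbered 0 or 1 when any library was left out. Neurog2, the proneural factor of motor neuron progenitors, had 32.2, 33.2 and 31.6 TPM at day 1, against 18.6, 18.6 and 14.4 TPM at day 0.5. Day 1 was higher in all libraries (log2 fold change 0.90 ± 0.10, adjusted p = 7.05e-09). Dll1, a Notch ligand of cells that start to differentiate, had 54.7, 52.4 and 51.0 TPM at day 1, against 46.2, 45.1 and 44.9 TPM at day 0.5, a small change (log2 fold change 0.22 ± 0.05, adjusted p = 0.000187). Dll4, another ligand, was at 4.54 to 5.60 TPM at day 1 and 1.12 to 1.82 TPM at day 0.5 (log2 fold change 1.74 ± 0.14, adjusted p = 1.17e-12). Nhlh1, a bHLH gene of newborn neurons, had 7.38, 7.98 and 8.07 TPM at day 1, against 1.42, 1.98 and 2.03 TPM at day 0.5, low in the earlier libraries (log2 fold change 2.10 ± 0.17, adjusted p = 2.2e-12). Neurod4 showed log2 fold change 1.34 and Nhlh2 log2 fold change 1.44. Of 14 Notch receptor and target genes, 10 were higher and 3 lower, with a median of 0.54. Hes5, the main Notch target of neural progenitors, had 227, 234 and 219 TPM at day 1, against 168, 139 and 144 TPM at day 0.5, higher at day 1 (log2 fold change 0.57 ± 0.09, adjusted p = 1.33e-06). Hey1, a related target, was at 24.4 to 26.6 TPM at day 1 and 9.42 to 11.5 TPM at day 0.5 (log2 fold change 1.28 ± 0.08, adjusted p = 4.62e-15), and Nrarp, a Notch feedback gene, changed by 0.98. Hes7, the oscillating repressor of presomitic mesoderm, fell to 0.39 to 0.62 TPM at day 1, against 3.56 to 4.87 TPM at day 0.5 (log2 fold change -3.09 ± 0.26, adjusted p = 1.15e-11).

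Pan-neuronal genes did not move one way. Of 20, 8 were higher and 9 lower, and their summed level was 308 to 324 TPM at day 1 and 395 to 403 TPM at day 0.5. Tubb3, a neuronal beta-tubulin, had 26.3, 25.8 and 30.3 TPM at day 1, against 21.7, 19.2 and 20.8 TPM at day 0.5, a small rise without overlap (log2 fold change 0.41 ± 0.08, adjusted p = 7.44e-05). Elavl4, an RNA-binding protein of neurons, was at 14.4 to 18.1 TPM at day 1 and 5.45 to 6.43 TPM at day 0.5 (log2 fold change 1.54 ± 0.11, adjusted p = 2.5e-13), and Dcx, a microtubule protein of migrating neurons, was under 2 TPM in all 6 libraries (log2 fold change 1.63). Gap43, a growth cone protein, had 15.3, 15.5 and 16.4 TPM at day 1, against 77.4, 75.6 and 74.9 TPM at day 0.5, lower at day 1 in every library (log2 fold change -2.28 ± 0.09, adjusted p = 1.52e-20). Gng3, a G protein subunit, was also lower (log2 fold change -1.92). Of 17 genes listed for motor neurons, 4 were higher and 4 lower, near the shares of 23.3% and 24.3% among all genes tested. Ret, a receptor for GDNF ligands, showed log2 fold change 0.92. Mnx1, Lhx3 and Chat, defining genes of spinal motor neurons, were not called, at log2 fold changes of 0.17, 0.74 and 0.15. Lhx3 was called without day 1 replicate 2 (log2 fold change 0.94, adjusted p = 0.023) and with limma on log2(TPM + 1) (adjusted p = 0.024).

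**Figure D3:**
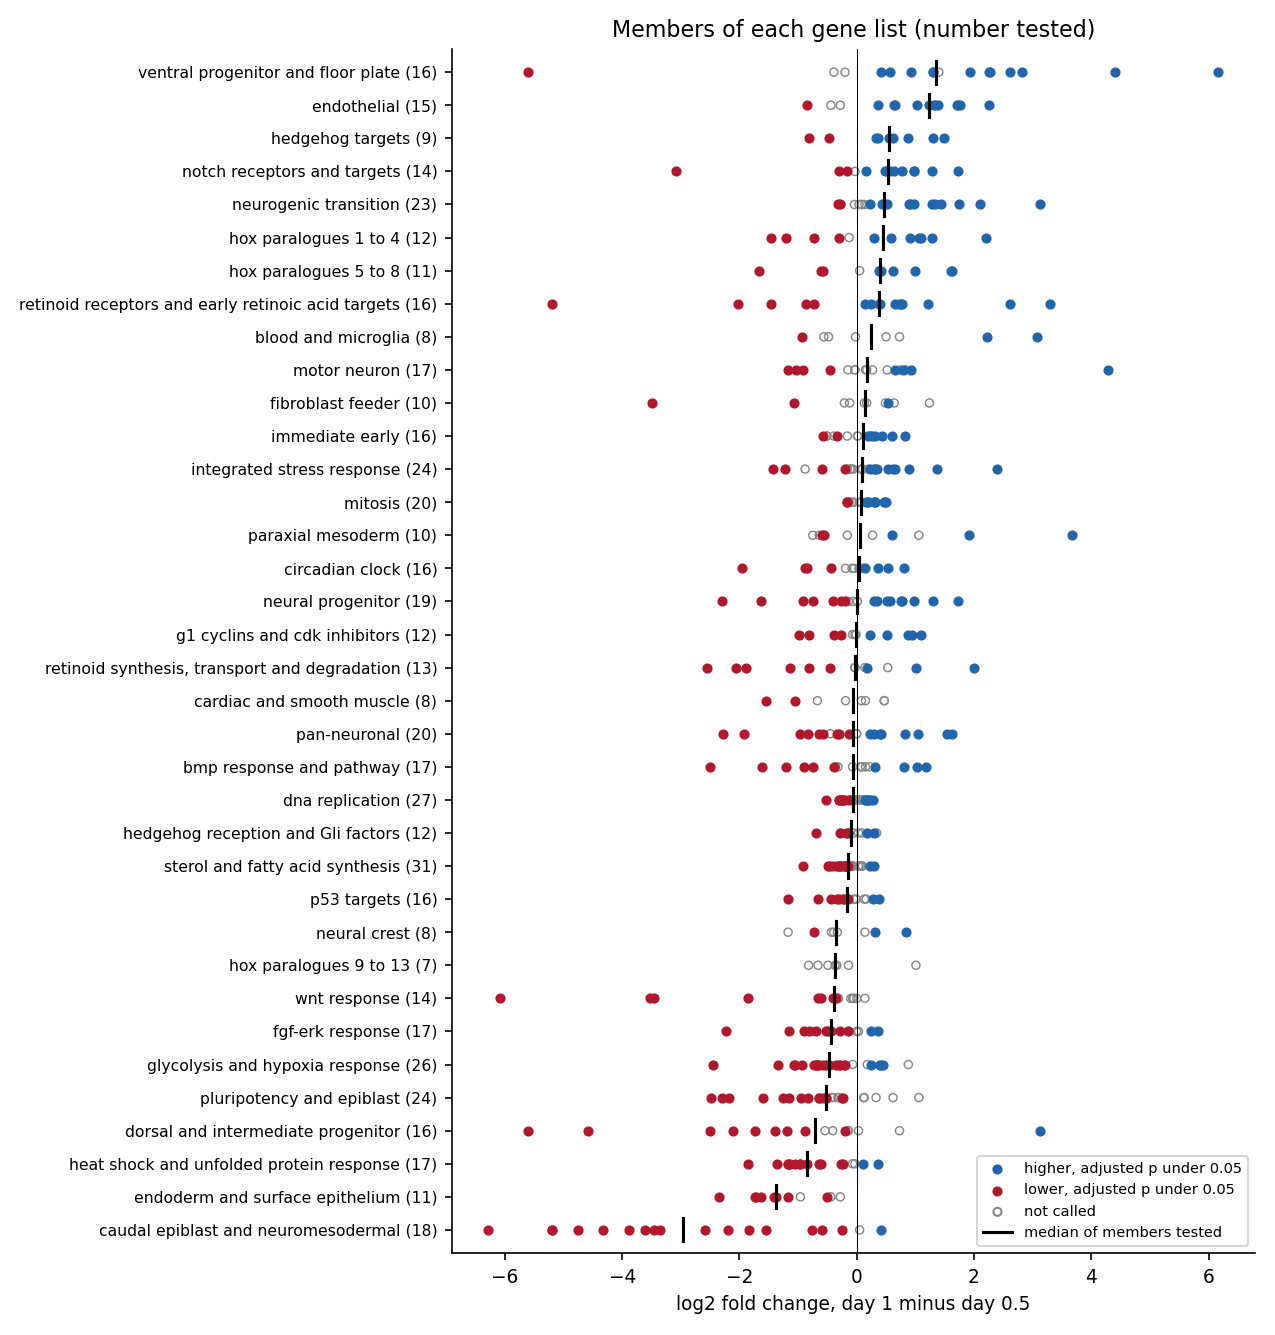
Each row is 1 of 36 gene lists with the number of genes tested in brackets, sorted by median, and each point is 1 gene at its log2 fold change, day 1 minus day 0.5. Blue points were higher and red points lower at an adjusted p under 0.05, open points were not called, and the vertical tick is the median: the caudal epiblast list has the lowest median, -2.97, and the ventral progenitor list the highest, 1.35.

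Chaperones and genes of the unfolded protein response were lower at day 1. Of 17 tested, 13 were lower and 2 higher, 6 of the lower ones by at least 2-fold, and the median was -0.84. The summed level of the list was 8827 to 8966 TPM at day 1 and 10203 to 10570.2 TPM at day 0.5. Hspa5, the endoplasmic reticulum chaperone BiP (ENSMUSG00000026864, chr2:34771970-34777547, plus strand), had 251, 262 and 248 TPM at day 1, against 623, 648 and 672 TPM at day 0.5. The later libraries lay at well under the level of the earlier ones (log2 fold change -1.36 ± 0.05, adjusted p = 3.09e-20). Calr, calreticulin, a calcium-binding chaperone of the same compartment (ENSMUSG00000003814, chr8:84841850-84846934, minus strand), had 297, 324 and 338 TPM at day 1, against 659, 684 and 716 TPM at day 0.5. All day 1 libraries were lower (log2 fold change -1.14 ± 0.06, adjusted p = 2.03e-17). Xbp1, a transcription factor of the unfolded protein response, was at 26.7 to 28.5 TPM at day 1 and 60.0 to 63.9 TPM at day 0.5 (log2 fold change -1.17 ± 0.06, adjusted p = 2.15e-16). Sdf2l1, Hyou1, Pdia4 and Hsp90b1, which also serve protein folding in the endoplasmic reticulum, had log2 fold changes of -1.05, -0.97, -0.84 and -0.64. Hspb1 and Hspa1b, cytosolic heat shock proteins, changed by -1.85 and -1.18. The members that were higher were Herpud1 (0.37) and Hsp90ab1 (0.10), and 1 of them was lost without day 0.5 replicate 1 or 2 or day 1 replicate 2 or 3.

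Because the endoplasmic reticulum chaperones fell together, their promoters were searched for the endoplasmic reticulum stress element, a site bound through the NF-Y and ATF6 factors, as the letters CCAAT, 9 bases of any kind and CCACG on either strand. The element was found in 37 of 27025 genes (0.137%), and in 3 of the 13 listed chaperone and stress genes with a promoter in the table. These were Hspa5 (chr2:34771840-34772139, plus strand), Calr (chr8:84846882-84847181, minus strand) and Hsp90b1 (chr10:86705395-86705694, minus strand), with capitals for the element, printed 5′ to 3′ in the direction of transcription (RefSeq, GRCm38.p6).
Hspa5: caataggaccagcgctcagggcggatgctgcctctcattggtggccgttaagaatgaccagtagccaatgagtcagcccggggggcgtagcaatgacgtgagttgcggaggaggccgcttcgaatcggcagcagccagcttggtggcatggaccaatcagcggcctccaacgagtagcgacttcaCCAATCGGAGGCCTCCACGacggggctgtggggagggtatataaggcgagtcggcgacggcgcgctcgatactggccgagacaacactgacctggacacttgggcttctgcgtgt
Calr: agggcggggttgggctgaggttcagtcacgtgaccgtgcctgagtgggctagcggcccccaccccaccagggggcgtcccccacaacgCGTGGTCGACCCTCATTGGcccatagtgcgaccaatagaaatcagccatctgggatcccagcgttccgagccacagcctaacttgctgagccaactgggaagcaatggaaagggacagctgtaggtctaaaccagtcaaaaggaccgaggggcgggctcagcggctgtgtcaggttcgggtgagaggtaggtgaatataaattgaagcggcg
Hsp90b1: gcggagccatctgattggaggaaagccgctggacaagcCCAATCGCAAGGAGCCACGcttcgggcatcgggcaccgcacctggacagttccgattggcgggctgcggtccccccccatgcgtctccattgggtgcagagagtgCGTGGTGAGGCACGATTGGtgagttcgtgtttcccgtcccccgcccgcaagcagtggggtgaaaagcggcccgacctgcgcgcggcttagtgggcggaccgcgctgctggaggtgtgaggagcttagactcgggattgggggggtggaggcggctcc
Hsp90b1 holds 2 matches in opposite orientation, and the match of Calr is on the opposite strand. The element is named for stress genes of the endoplasmic reticulum, so its share among such genes is not a test of their fall at day 1. The match is a description, and binding at these sites was not tested.

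Glucose transport and glycolysis genes were lower too. Of 26 genes of glycolysis and the hypoxia response tested, 19 were lower and 4 higher, with a median of -0.47. The listed genes summed to 9706 to 10274 TPM at day 1 and 13767 to 14094 TPM at day 0.5. Slc2a3, the high-affinity glucose transporter Glut3 (ENSMUSG00000003153, chr6:122727809-122801640, minus strand), had 61.5, 60.6 and 61.5 TPM at day 1, against 336, 340.0 and 312 TPM at day 0.5. The 3 later libraries were close together and lay far below the earlier ones (log2 fold change -2.45 ± 0.08, adjusted p = 6.99e-22). Slc2a1, the transporter Glut1, had 876, 894 and 815 TPM at day 1, against 2145, 2175 and 2107 TPM at day 0.5. It was lower in all day 1 libraries and remained above Slc2a3 in TPM (log2 fold change -1.35 ± 0.06, adjusted p = 3.63e-18). Hk2, a hexokinase, was at 34.4 to 38.3 TPM at day 1 and 74.6 to 80.7 TPM at day 0.5 (log2 fold change -1.07 ± 0.10, adjusted p = 1.45e-10), and Egln3, a prolyl hydroxylase induced by hypoxia, at 3.44 to 4.28 TPM at day 1 and 7.26 to 8.58 TPM at day 0.5 (log2 fold change -1.06 ± 0.14, adjusted p = 1.65e-07). The 4 higher members were Hk1, Aldoc, Vegfa and Egln1, with log2 fold changes of 0.39, 0.40, 0.44 and 0.24. Slc16a3, the lactate exporter Mct4, is not on that list and had 32.7, 27.6 and 29.8 TPM at day 1, against 92.5, 81.5 and 90.8 TPM at day 0.5, also lower (log2 fold change -1.61 ± 0.20, adjusted p = 6.13e-08).

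Of 24 genes of the integrated stress response, 10 were higher and 4 lower, and without day 0.5 replicate 2 the lower ones were 2. Chac1, which degrades glutathione, was at 5.51 to 8.47 TPM at day 1 and 1.31 to 1.43 TPM at day 0.5 (log2 fold change 2.39 ± 0.27, adjusted p = 4.12e-09), and Ddit4, an inhibitor of mTORC1, had 53.7, 53.4 and 46.9 TPM at day 1, against 136, 129 and 143 TPM at day 0.5, lower at day 1 (log2 fold change -1.42 ± 0.07, adjusted p = 5.04e-17). Asns, asparagine synthetase, was at 142 to 154 TPM at day 1 and 146 to 149 TPM at day 0.5, without a detectable difference (log2 fold change -0.06 ± 0.08, adjusted p = 0.532). Of 31 sterol and fatty acid synthesis genes, 16 were lower and 2 higher, and none by 2-fold. The higher ones were 1 without day 0.5 replicate 3 or day 1 replicate 3. Hsd17b7, an enzyme of cholesterol synthesis, changed by -0.91. Among 16 p53 targets, 10 were lower, led by Pmaip1 (-1.18), and 2 higher. Of 27 DNA replication genes, 6 were higher and 10 lower, and of 20 mitosis genes, 9 were higher and 2 lower, without a 2-fold change in either list. The lower mitosis genes numbered 0 or 1 in each fit that left out a library, other than the one without day 0.5 replicate 1. Mki67, a proliferation marker, was at 84.6 to 101 TPM at day 1 and 60.9 to 69.0 TPM at day 0.5 (log2 fold change 0.50 ± 0.08, adjusted p = 5.63e-06). Of 12 genes for G1 cyclins, their kinases and Cdk inhibitors, 5 were higher and 4 lower, and the lower ones were 2 without day 1 replicate 3. Among the inhibitors, Cdkn1c (0.95) and Cdkn2c (1.10) were higher and Cdkn2b (-0.99) was lower. Of 16 circadian clock genes, 4 were higher and 4 lower, with Arntl at -0.85 and Per2 at 0.80. Those shares were near the 23.3% higher and 24.3% lower among all genes tested.

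Markers of other cell types were low but not absent, and some moved with time. Of 15 endothelial markers tested, 12 were higher at day 1 and 1 was lower, with a median of 1.24, and their summed level was 118 to 148 TPM at day 1 and 74.8 to 89.7 TPM at day 0.5. Cdh5, VE-cadherin, was at 7.67 to 9.0 TPM at day 1 and 1.83 to 3.53 TPM at day 0.5 (log2 fold change 1.73 ± 0.24, adjusted p = 2.47e-07), and Pecam1 at 2.74 to 3.17 TPM at day 1 and 1.05 to 1.22 TPM at day 0.5 (log2 fold change 1.38 ± 0.29, adjusted p = 0.000167). Of 12 blood and microglia markers, 8 were tested, 2 were higher and 1 was lower, and the list summed to 14.4 to 20.4 TPM at day 1 and 7.58 to 10.2 TPM at day 0.5. The embryonic globin genes Hbb-bh1 and Hba-x were at 6.55 to 9.15 and 3.21 to 5.82 TPM at day 1, and at 1.33 to 1.94 and 0.41 to 0.57 TPM at day 0.5. Of 14 endoderm and surface epithelium markers, 11 were tested and 8 were lower, with sums of 75.6 to 93.7 TPM at day 1 and 176 to 196 TPM at day 0.5. Cdh1, E-cadherin, which epiblast cells express as well (ENSMUSG00000000303, chr8:106603351-106670246, plus strand), had 12.7, 12.4 and 10.5 TPM at day 1, against 35.2, 35.9 and 38.2 TPM at day 0.5, lower at day 1 (log2 fold change -1.63 ± 0.09, adjusted p = 3.14e-16). The paraxial mesoderm list had 10 of 14 genes tested, 3 higher and 2 lower, and summed to 19.2 to 24.1 TPM at day 1 and 22.2 to 22.9 TPM at day 0.5, and 4 of the 6 fits that left out 1 library had fewer than 2 lower. The 10 fibroblast markers, which could report remaining feeder cells, summed to 93.7 to 116 TPM at day 1 and 97.7 to 106 TPM at day 0.5, with 1 higher and 2 lower, of which Thy1 changed most (log2 fold change -3.49). Neural crest markers, with 8 of 10 tested, summed to 19.0 to 20.4 TPM at day 1 and 15.9 to 17.5 TPM at day 0.5, and cardiac and smooth muscle markers, with 8 of 10 tested, to 25.9 to 36.7 TPM at day 1 and 23.8 to 31.2 TPM at day 0.5. Of all these markers, only Ttr, of the endoderm list, had 0 counts in all 6 libraries. In bulk RNA, fewer cells of a type and less RNA per cell cannot be told apart. The part of such cells in the changes of the other lists was not tested.

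The genes with the largest rises, among called genes of at least 10 CPM whose groups did not overlap, began with Vit. Vit encodes vitrin, a protein of the extracellular matrix (ENSMUSG00000024076, chr17:78508064-78627408, plus strand), and had 9.91, 7.27 and 7.15 TPM at day 1, against 0.28, 0.20 and 0.32 TPM at day 0.5, present only in traces at day 0.5 (log2 fold change 4.89 ± 0.19, adjusted p = 6.43e-20). Others by this rule were Nkx2-2, Fam181a (4.16), Prss12 (4.04), Nr2f1, Adgrg1 (3.09), Tox2 (2.99), Plxna4 (2.88) and Gpm6b (2.85). Plxna4 is a semaphorin receptor of growing axons, Gpm6b a membrane glycoprotein of neurons and glia, and Adgrg1 an adhesion receptor of neural progenitors. The largest falls by the same rule were Wnt8a, Cdx1, Olig3, Hes3, Nkx1-2, Sfrp5, Sp5, Pla2g7 (-3.25), Frzb (-3.09) and Lhx1 (-3.08). Of these 10, 5 are on the caudal epiblast list and 2 of the others are secreted Wnt antagonists. Pla2g7 encodes a secreted phospholipase, and had 4.70, 4.88 and 4.75 TPM at day 1, against 43.6, 43.4 and 45.9 TPM at day 0.5. Lhx1, a LIM homeobox gene of mesoderm and interneurons, was at 0.78 to 0.93 TPM at day 1 and 7.33 to 7.96 TPM at day 0.5, so the groups were far apart for both.

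The same clock step, from a 12-hour to a 24-hour time point of a day, recurs from day 1.5 to day 2 and from day 2.5 to day 3 in libraries that the main comparison does not use. From day 1.5 to day 2, 26.1% of genes were higher and 27.2% lower, and from day 2.5 to day 3, 18.1% and 16.3%. Of 4185 genes higher at day 1 than at day 0.5, 2314 were higher at day 2 than at day 1.5, which is 55.3% of the first list and 49.3% of the second, and 501 were lower. Of 4369 genes that were lower at day 1, 2273 were lower at day 2 (52.0% and 46.4%) and 539 were higher. For day 3 against day 2.5 the shared genes were 1430 higher (34.2% and 43.9%) and 1318 lower (30.2% and 44.9%). In all 3 steps 1168 genes were higher and 1145 lower, 27.9% and 26.2% of the genes called in that direction at day 1.

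**Figure D4:**
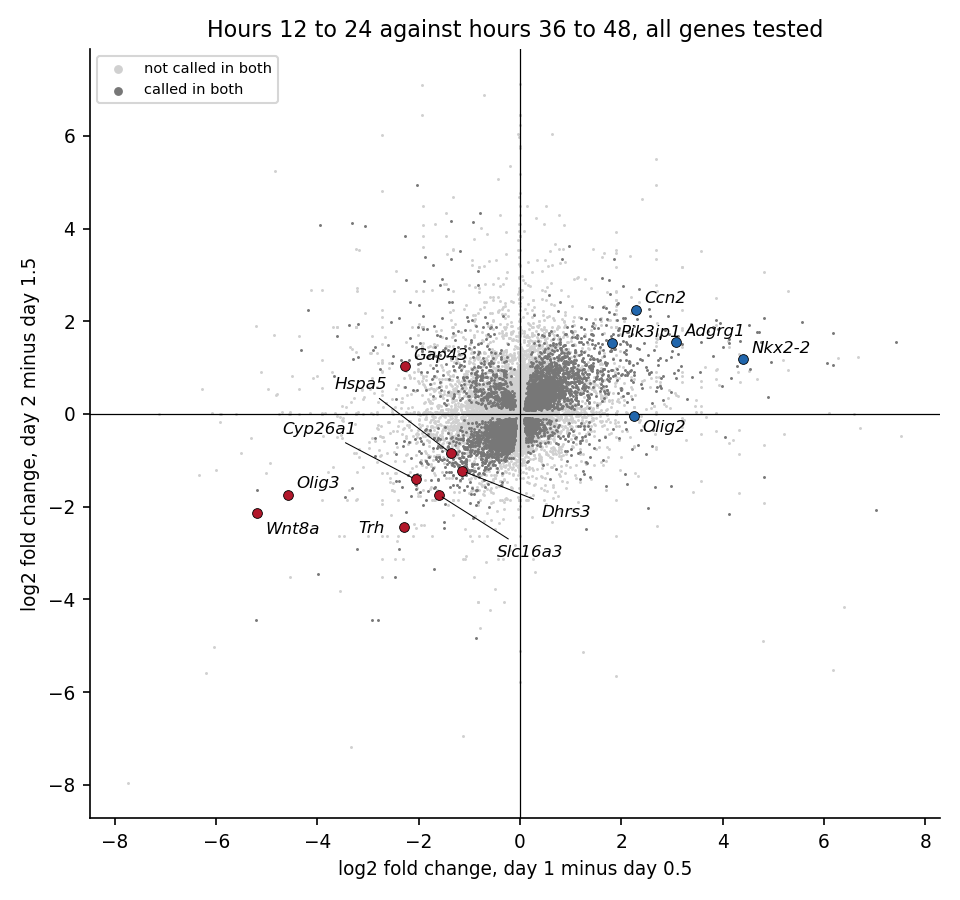
Each point is 1 gene tested, with its log2 fold change on the x axis for day 1 minus day 0.5 and on the y axis for day 2 minus day 1.5. Dark grey points were called in both comparisons, which share no library; named genes are blue where higher and red where lower at day 1, and Ccn2 and Adgrg1 are high on both axes, while Gap43 is low on the first and high on the second.

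Some genes alternated, with a higher mean level at each 12-hour time point than at the full day that followed. Cyp26a1 had mean levels of 0.54, 9.18, 2.22, 9.90, 4.10, 8.93 and 3.40 TPM at days 0, 0.5, 1, 1.5, 2, 2.5 and 3. After day 0 it was high at each of the 3 middle-of-day points and lower at each full day. Its log2 fold change was -1.41 ± 0.13 for day 2 against day 1.5 (adjusted p = 4.27e-11) and -1.43 ± 0.14 for day 3 against day 2.5 (adjusted p = 6.57e-10). Dhrs3 alternated likewise, at 2.03, 15.4, 6.92, 13.6, 6.64, 14.9 and 8.07 TPM. Its changes in the later steps were -1.23 ± 0.11 and -0.94 ± 0.11 on the log2 scale (adjusted p = 2.23e-11 and 3.07e-08). Hspa5 had a similar course at 409, 648, 254, 409.9, 255, 593 and 488 TPM, and its later changes were -0.85 ± 0.05 and -0.32 ± 0.05 (adjusted p = 7.19e-15 and 1.24e-05). Calr was at 508, 686, 319.8, 563, 354, 794 and 658 TPM.

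Rarb did not alternate, with 0.60, 19.3, 31.9, 47.8, 41.4, 39.3 and 25.2 TPM at the same days, nor did Crabp1, with 49.4, 96.7, 390.3, 505, 806, 759 and 503 TPM. Aldh1a2 was high at day 0.5 and again at day 3, at 2.48, 26.3, 4.48, 1.51, 1.27, 2.57 and 22.8 TPM. Slc2a3 had a lower mean at each successive point, with 590.1, 329.6, 61.2, 20.0, 14.2, 12.8 and 12.2 TPM. Nkx2-2 continued up, at 0.05, 0.50, 10.3, 19.2, 47.6, 49.7 and 81.5 TPM, while Olig2, at 0.11, 21.7, 105, 167, 180.2, 125 and 108 TPM, had its highest mean of these days at day 2.

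**Figure D5:**
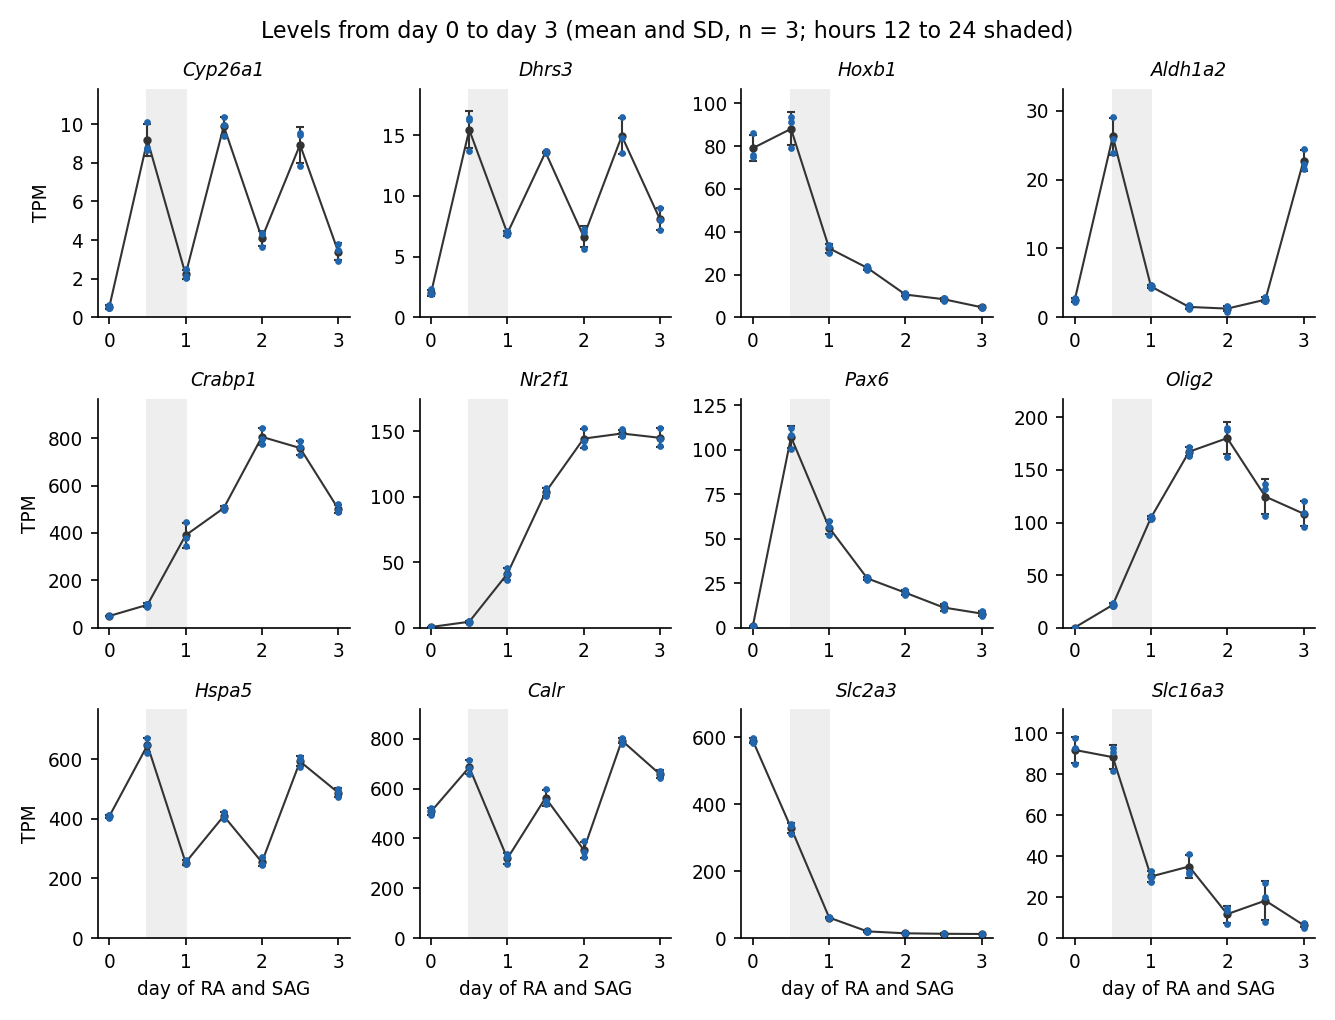
TPM of 12 genes in each library (blue points) from day 0 to day 3, with the mean and SD over 3 libraries as black line and bars, on axes from 0 and with hours 12 to 24 shaded. Cyp26a1, Dhrs3, Hspa5 and Calr are higher at days 0.5, 1.5 and 2.5 than at the full day that follows, while Slc2a3 has a lower mean at each successive point.

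Genes called in the same direction in all 3 steps were ranked by the smallest of their 3 changes. A mean of at least 10 CPM at day 1 or day 0.5 was required. The largest rises were those of Mturn, Adgrg1, Ccn2, Nrbp2, Pik3ip1 and Limch1. Ccn2, a matricellular protein and a target of YAP, had 17.2, 16.5 and 13.7 TPM at day 1, against 3.19, 3.05 and 3.37 TPM at day 0.5. It rose in this step (log2 fold change 2.29 ± 0.23, adjusted p = 5.64e-10), again by 2.25 ± 0.20 at day 2 (adjusted p = 3.45e-11) and by 0.98 ± 0.19 at day 3 (adjusted p = 0.000128), with lower levels at each 12-hour point between. Pik3ip1, an inhibitor of PI3 kinase, changed by 1.83, 1.53 ± 0.15 and 0.86 ± 0.12 in the 3 steps. By the same rule and ranking, the largest falls included those of Slc16a3, Olig3, Car2, Dhrs3 and Hoxb1. For Olig3 the last step, day 3 against day 2.5, was the least certain (log2 fold change -1.53, edgeR adjusted p = 0.0143). That call was lost with limma on log2(TPM + 1) (adjusted p = 0.125) and in edgeR without day 3 replicate 3 (adjusted p = 0.0988). Car2, a carbonic anhydrase, was at 34.0 to 35.8 TPM at day 1 and 82.6 to 107 TPM at day 0.5 (log2 fold change -1.44 ± 0.08, adjusted p = 8.3e-16). The change of medium once a day has the same period as these alternations, and its part in them was not tested.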

How the data were processed

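Day 1 and day 0.5 each had 3 libraries of polyadenylated RNA, extracted with a column kit and made into KAPA mRNA libraries per the labels' protocols. Per the submitters' processing notes, bcl2fastq 2.20.0 and RSEM were used with the build GRCm38. The authors deposited expected counts and TPM per gene. Which aligner and annotation release were used, and whether counting was by strand, is not given in the sources used here. Of 51912 gene IDs, 51633 were matched to a symbol in GENCODE M21.

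Expected counts, of which 6.87% were not whole, were rounded. All 36 libraries were fitted with edgeR 4.0.16 (R 4.3.3) as 12 groups after filterByExpr and TMM scaling, with the quasi-likelihood test on 24 residual degrees of freedom and Benjamini-Hochberg adjustment over 17990 genes. Standard errors are approximate: the size of the log2 fold change over the root of its F statistic. Bounds used a limit of 3 counts per library, and counting intervals are exact at 95% and cover counting error only. Depth ranged from 28709140 to 34358563 expected counts. DESeq2 1.42.0, limma 3.58.1 on log2(TPM + 1) and log2(TPM + 0.1), and fits without single libraries were alternatives. Counts were also simulated from gene means over all 36 libraries (17263 genes tested). Only 67, 67 and 66 genes were changed at day 1, by 1.5-fold, 2-fold and 4-fold. Recovery was 68.7%, 70.1% and 83.3% in that order, and 5.13% of calls were false. In the data 47.5% of genes were called, so these rates need not hold for the comparison itself.

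The members and gene lists were chosen with earlier results of these data known. Genes were named by a rule that took a panel, the 10 largest rises and falls and up to 5 called members per list. It also took the 6 largest changes each way repeated in 3 steps. The largest and the repeated changes were taken among called genes with a symbol and at least 10 CPM in the higher group. Non-overlapping groups were required for the 10 largest rises and falls only. Other list members named were chosen after their values were seen, and a few genes that these rules name are not reported here. Libraries of one time point differed by more than sampling noise (chi-square over its degrees of freedom, 3.13 to 11.9), and none was a copy.

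By GENCODE M21 exons, Hoxa2, Hoxd3, Hoxd4 and Hsp90b1 overlap the exons of a second gene in the same orientation. Arntl, Axin2, Ccn2, Ccnd1, Ccnd2, Cdkn1c, Dll1, Dll4, Dusp5, Evx1, Ferd3l, Gbx2, Gli1, Gli3, Gng3, Greb1, Hes5, Hes7, Hk1, Hoxa4, Hoxb5, Hoxd3, Hoxd4, Hsp90b1, Irx3, Jun, Lhx3, Lin28a, Mturn, Nkx1-2, Nkx2-2, Nr2f1, Nr2f2, Nrarp, Nrbp2, Olig1, Pik3ip1, Pla2g7, Plxna4, Pou5f1, Prss12, Rarb, Shh and Slc2a1 overlap exons of an antisense gene. Values of both sets are uncertain, since counting by strand is not given.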

Additional observations from a re-analysis of the deposited data

How the results depend on the processing

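No named gene that was called changed direction under any alternative. Lower calls outnumbered higher ones in each setting but limma on log2(TPM + 0.1), with 3757 higher and 3698 lower, and of the calls repeated in 3 steps the lower ones were the more numerous in the fits of 6 libraries (1107 higher, 1122 lower) and without some single libraries. For day 1 against day 0.5, other settings called between 7292 genes (limma on log2(TPM + 1)) and 8557 (median-of-ratios scaling), and DESeq2 called 8214, 8081 of them shared with the 8554. The median log2 fold change moved by no more than 0.014 from 0. Leaving out 1 library gave 7652 to 7946 genes, 3731 to 3926 higher and 3917 to 4050 lower; for day 2 against day 1.5 it gave 8715 to 9277, for day 3 against day 2.5 5023 to 5740, for day 0.5 against day 0 8871 to 9273 and for day 1.5 against day 1 7211 to 7652, with 957 to 1199 genes higher and 935 to 1187 lower in 3 steps. A requirement of at least 2-fold left 1626 genes (681 higher, 945 lower), 1387 for day 2 against day 1.5, 554 for day 3 against day 2.5, 2477 for day 0.5 against day 0, 1353 for day 1.5 against day 1, and 28 higher and 8 lower in 3 steps. Genes lower in 3 steps numbered 1145 on counts but 593 and 577 with limma on log2(TPM + 1) and log2(TPM + 0.1), and the cause was not tested. Over all settings, named gene values lost a call in 38 cases and gained one in 11. With the replicate number as a block, 8495 genes were called, 8423 of them shared; libraries of the same number did not deviate together (r = 0.01, 0.08 and -0.16), so the numbers were not taken to pair samples. Genes with few counts, such as Evx1, Dkk1, Ferd3l and Gsx1, are limited by depth.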

Other observations

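Several list members not described above also differed between day 1 and day 0.5, and they were chosen after their values were seen. Meis2, a cofactor of Hox proteins, differed by 0.15 on the log2 scale (adjusted p = 0.0124), and limma on log2(TPM + 1) and log2(TPM + 0.1) did not call it (adjusted p = 0.193 and 0.212). The retinoic acid receptor genes Rara and Rarg moved in opposite directions. Rara was at 58.8, 55.9 and 50.4 TPM at day 1 and at 32.8, 32.8 and 37.9 TPM at day 0.5 (log2 fold change 0.66, edgeR adjusted p = 1.78e-11). Rarg was at 24.7, 21.9 and 21.1 TPM at day 1 and at 41.8, 42.0 and 38.6 TPM at day 0.5 (log2 fold change -0.87, edgeR adjusted p = 1.16e-12). For both receptors the libraries of the 2 time points did not overlap.

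A pair of genes of the paraxial mesoderm list that are known in the sclerotome were higher at day 1, at very low levels. Pax1 had 69 counts over the day 1 libraries and 5 over the day 0.5 libraries (log2 fold change 3.67, edgeR adjusted p = 0.000191), and it shares exons with a gene on the opposite strand. Uncx had 74 counts at day 1 and 19 at day 0.5 (log2 fold change 1.91, edgeR adjusted p = 0.000124). Both stayed under 1 TPM in all 6 libraries.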
